A study of Homo sapiens with 6 samples.

Results

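Oxidative phosphorylation in 143B cells is described here through its nuclear genes. Members were the protein-coding rows of the deposited gene table, off the mitochondrial chromosome, whose symbols begin with NDUF, UQCR, ATP5 or COX and a digit, or are SDHA, SDHB, SDHC or SDHD. The rule reads no expression values, but it was chosen with earlier results of these data known. This gave 107 of the 58825 genes in the table, and 99 of the 107 had enough reads to be tested, among 18910 tested genes in all. The study compared 3 libraries of 143B cells that received a SIGLEC15 siRNA with 3 libraries of 143B cells that received a negative control siRNA. Both groups were given 80 nmol/L of siRNA in medium with 10% serum with the same transfection reagent, and RNA was taken 36 h later. 143B is a human osteosarcoma cell line, long used as the nuclear background of cybrids, cells whose mitochondrial DNA comes from another source. All 6 libraries come from that line, and nothing in the labels says whether replicates were separate cultures. The p-values therefore set the group difference only against the scatter of these 6 libraries, which may be technical. Whether the SIGLEC15 siRNA was 1 sequence or a pool is not given in these sources.

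Oxidative phosphorylation passes electrons from NADH through complex I, and from succinate through complex II, to ubiquinone, then through complex III, cytochrome c and complex IV to oxygen. The proton gradient built on the way drives the ATP synthase. Mitochondrial DNA encodes a small hydrophobic set of subunits of complexes I, III and IV and of the ATP synthase, and the nucleus encodes all others, complex II entirely, together with the assembly factors. Many of the nuclear promoters carry sites for the factors NRF1, GABP (an ETS family factor) and YY1, which is why these genes are often read as a co-regulated set.

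Promoter windows show the letters that the members share apart from their names. RefSeq windows of 300 bases, 250 before and 50 after a gene's start (GRCh38.p14), were matched by symbol to 88 of the 107 members, which have 111 windows because some genes have several starts, and windows of 1 gene can overlap. On both strands CGCANGCG, the NRF1 core, was found in 29.7% of the members' windows, against 12.8% of 22199 windows of protein-coding genes and 10.0% of all 35116 windows. The ETS letters CCGGAAG were in 27.0% of the members' windows, against 12.8% of protein-coding windows and 10.3% of all. The YY1 letters ATGGCGG were in 27.0%, against 6.99% and 5.55%. At least 1 of the 3 was in 59.5% of the members' windows, against 27.4% and 21.9%, and matches of different motifs overlapped in 0 member windows. Of the 33 YY1 matches 66.7% began after the start site, against 52.6% of the 1625 in protein-coding windows. A site that lies in overlapping windows counts in each of them, so the matches are not all distinct sites. The members without a window included ATP5F1B, ATP5F1D, ATP5MC3, ATP5MF, ATP5MF-PTCD1, ATP5MGL, COX11, COX4I2, COX6C, COX7A1, NDUFAF6, NDUFB5, NDUFB9, NDUFC2, NDUFS5, SDHC, UQCRB and UQCRHL. A match is a description of letters and not a measured binding site.

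Windows of 5 members follow, 5′ to 3′ on the gene's strand, with the motif letters or their reverse complement in capitals. COX6A1 is shown as an example of a window with all 3 motifs, which ATP5PF and SDHD also have. SDHA is shown because its 4 NRF1 matches start 49 bases apart each time. COX10 was taken because it had the largest log2 fold change among the members discussed below with intervals that leave 0 out. ATP5MC1 and ATP5MC2 were taken because their levels lay in opposite directions. ATP5MC2 has 3 windows, and the one shown is the only one of them with a match to any of the 3 motifs.
COX6A1, chr12:120437863-120438162, plus strand: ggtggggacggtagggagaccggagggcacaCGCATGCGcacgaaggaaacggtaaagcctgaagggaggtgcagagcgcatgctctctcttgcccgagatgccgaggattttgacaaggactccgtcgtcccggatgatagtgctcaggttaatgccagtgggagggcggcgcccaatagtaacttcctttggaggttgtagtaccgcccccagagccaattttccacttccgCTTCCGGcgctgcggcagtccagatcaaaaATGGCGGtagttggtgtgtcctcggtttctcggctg
SDHA, chr5:218070-218369, plus strand: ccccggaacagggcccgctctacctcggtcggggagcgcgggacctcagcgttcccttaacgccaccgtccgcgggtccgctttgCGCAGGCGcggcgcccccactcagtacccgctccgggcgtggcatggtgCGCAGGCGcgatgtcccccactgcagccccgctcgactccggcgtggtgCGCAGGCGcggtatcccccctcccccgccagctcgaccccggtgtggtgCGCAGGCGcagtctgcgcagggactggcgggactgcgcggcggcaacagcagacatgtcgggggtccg
COX10, chr17:14069254-14069553, plus strand: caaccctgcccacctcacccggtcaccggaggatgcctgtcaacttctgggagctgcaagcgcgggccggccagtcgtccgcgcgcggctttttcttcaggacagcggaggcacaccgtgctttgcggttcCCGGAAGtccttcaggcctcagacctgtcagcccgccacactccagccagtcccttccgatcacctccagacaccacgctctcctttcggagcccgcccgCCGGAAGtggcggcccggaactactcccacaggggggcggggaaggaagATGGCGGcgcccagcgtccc
ATP5MC1, chr17:48892537-48892836, plus strand: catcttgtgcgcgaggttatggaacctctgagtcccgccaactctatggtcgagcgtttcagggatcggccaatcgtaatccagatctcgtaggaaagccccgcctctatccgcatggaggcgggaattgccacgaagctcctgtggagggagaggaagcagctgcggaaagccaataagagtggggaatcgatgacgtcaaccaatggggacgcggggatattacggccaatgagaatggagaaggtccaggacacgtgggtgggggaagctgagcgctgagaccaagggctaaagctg
ATP5MC2, chr12:53676034-53676333, minus strand: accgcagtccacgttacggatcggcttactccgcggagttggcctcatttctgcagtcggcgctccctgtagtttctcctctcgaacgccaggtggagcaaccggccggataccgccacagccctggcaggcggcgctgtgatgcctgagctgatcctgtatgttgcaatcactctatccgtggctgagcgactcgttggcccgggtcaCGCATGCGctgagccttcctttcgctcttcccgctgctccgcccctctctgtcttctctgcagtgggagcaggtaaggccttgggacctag

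Members with and without each motif had similar medians. The median log2 fold change, SIGLEC15 siRNA over control siRNA, was 0.091 in the 30 tested members with an NRF1 match and 0.083 in the 54 with a window and no match. It was 0.094 in 27 members with and 0.087 in 57 members without ETS letters, and 0.079 in 25 members with and 0.091 in 59 members without YY1 letters. The factors themselves were read from the same libraries and are named here for their motifs, outside the rule for named genes. NRF1 had 12.7, 15.6 and 18.5 CPM (counts scaled to library size, with TMM factors) in SIGLEC15 siRNA replicates 1, 2 and 3, against 20.3, 21.5 and 21.0 CPM in the control siRNA replicates. All 3 SIGLEC15 siRNA values of NRF1 lay below all 3 control values, and the difference missed the threshold (log2 fold change -0.42, SE 0.149, edgeR adjusted p = 0.183). The groups overlapped for GABPA (log2 fold change 0.04, SE 0.078, edgeR adjusted p = 0.829) and for YY1 (log2 fold change -0.12, SE 0.166, edgeR adjusted p = 0.773).

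The libraries held between 57966691 and 67655254 counts in genes. SIGLEC15, the target of the siRNA, had 12, 8 and 6 counts in SIGLEC15 siRNA replicates 1, 2 and 3, against 12, 10 and 22 counts in control siRNA replicates 1, 2 and 3. It was near the limit of detection in both groups and its difference did not pass the test (log2 fold change -0.82, SE 0.598, edgeR adjusted p = 0.529), so these libraries do not show by the target's own level that it was knocked down. Of the mesenchymal markers VIM, SPARC, COL1A1 and RUNX2 were present, while COL1A2 averaged 0.08 CPM in SIGLEC15 siRNA cells and 0.05 CPM in control cells and ALPL 0.11 CPM in SIGLEC15 siRNA cells and 0.25 CPM in control cells. Among markers of other cell types CDH1, PTPRC and CDH5 had 0 counts in all 6 libraries and KRT19, CD14, ITGAM, PECAM1 and VWF stayed below 0.5 CPM in each library. EPCAM, listed with the epithelial markers, was between 8.69 and 13.2 CPM in every library.

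Not a single nuclear oxidative phosphorylation gene passed the edgeR test, while DESeq2 called some. Of the 99 tested members 0 had an edgeR quasi-likelihood adjusted p under 0.05 (Benjamini-Hochberg over all tested genes), while across all tested genes 4.65% did, 2.22% higher and 2.43% lower in SIGLEC15 siRNA cells. At an unadjusted p under 0.05 there were 12 members, 9 higher and 3 lower, which is 12.1% of the members against 19.1% of all tested genes. Leaving out 1 library changed that count. It was 5 without SIGLEC15 siRNA replicate 2 (4 higher, 1 lower). Without SIGLEC15 siRNA replicate 1 it was 7, and without control replicate 2 also 7 (5 higher, 2 lower each). It was 9 without control replicate 1, and 11 without control replicate 3 or without SIGLEC15 siRNA replicate 3. In these fits 1.33% to 2.20% of all tested genes had an edgeR adjusted p under 0.05, against 4.65% with all 6 libraries. Their share of all tested genes at an unadjusted p under 0.05 is not given here. The smallest adjusted p was 0.110, for COX20. DESeq2 called 11 of the 99 members (11.1%), 8 higher and 3 lower, against 17.1% of the 17043 genes it gave an adjusted p (8.62% higher and 8.49% lower). Members it called higher included ATP5MC1, COX10, COX20, NDUFA4, NDUFA10, NDUFAF5 and NDUFS1. Those it called lower were ATP5MC2, NDUFA5 and NDUFS4. Among these named members the DESeq2 adjusted p ran from 0.0016 for COX20 to 0.049 for NDUFAF5. limma-trend on log2(FPKM + 1) and on log2(FPKM + 0.1) called 0 of 97 members, against 7.99% and 7.9% of the 12032 genes tested, with 12 members at an unadjusted p under 0.05 in each. SIGLEC15 siRNA and control libraries did not overlap for 13 members (13.1%), 10 higher and 3 lower, against 26.6% of all tested genes, 12.9% higher and 13.7% lower. Each share set here beside that of all tested genes lay below it, a difference that was not itself tested.

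The intervals bound the size of any change. For 83 of the 99 members (83.8%) the 95% interval of the fold change lay within 1.5-fold in both directions, against 41.8% of all tested genes, and for 95 members it lay within 2-fold. Most members were abundant: 97 of the 99 averaged at least 10 CPM, against 9895 of the 18910 tested genes. Their median SE was 0.098, against 0.177 over all tested genes. Genes of matched level were not compared, so these shares do not show that the members were more stable. The median log2 fold change of the members was 0.08 (all tested genes -0.01), and 78 of 99 were positive (49.1% of all tested genes). Together the members took 1.29% ± 0.052 of the counts in SIGLEC15 siRNA cells and 1.24% ± 0.076 in control cells (SD, n = 3 each). In bulk RNA fewer cells of a kind and less RNA per cell cannot be told apart.

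**Figure D1:**
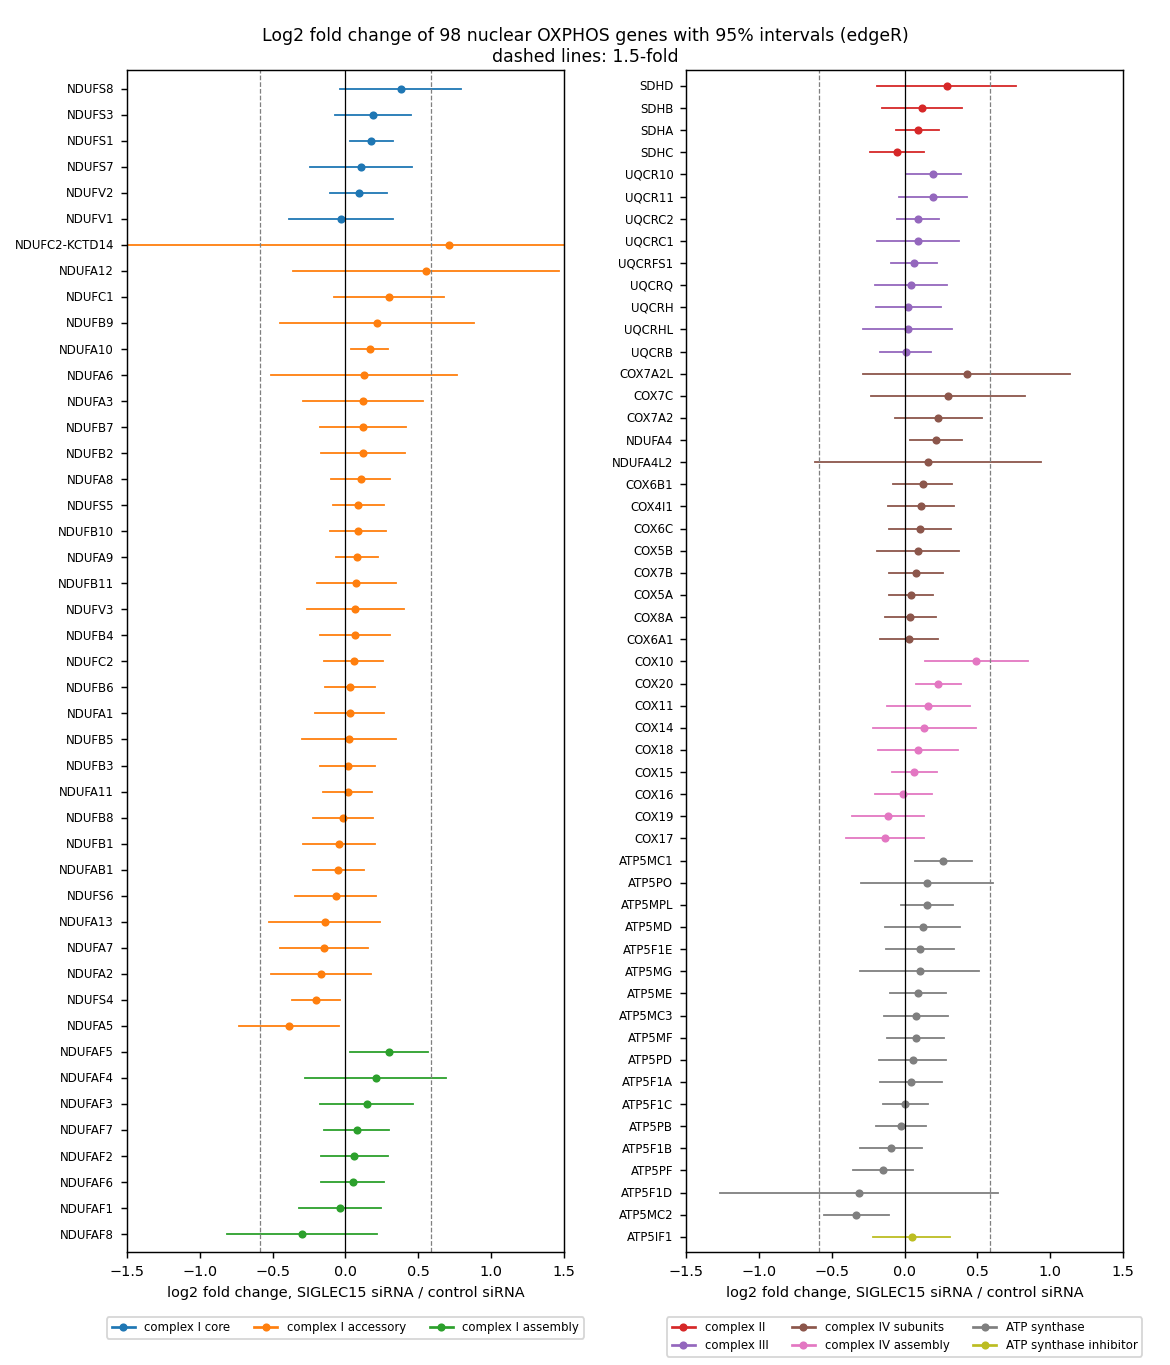
Log2 fold change (horizontal axis, SIGLEC15 siRNA over control siRNA, edgeR) of 98 of the 99 tested genes with 95% intervals, complex I on the left and complexes II to IV and the ATP synthase on the right, coloured by role. Dashed lines mark 1.5-fold, most intervals cross 0, 82 of the 98 lie between the dashed lines, and the interval of NDUFC2-KCTD14 (-2.37 to 3.78) runs off the axis.

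The members differed widely in level. Per kilobase of the median coding transcript, UQCRH, the hinge protein of complex III, was highest at 698 CPM per kb over the 6 libraries. ATP5MF (581 CPM per kb), NDUFS5 (495 CPM per kb), the peripheral stalk gene ATP5PB (495 CPM per kb) and ATP5F1B, the catalytic beta subunit of the ATP synthase (386 CPM per kb), came next. The lowest tested members were NDUFC2-KCTD14, a read-through of NDUFC2 with its neighbour (0.88 CPM per kb), and NDUFA4L2 (0.95 CPM per kb). By role the medians ran at 273 CPM per kb for the ATP synthase, 202 for complex IV subunits, 166 for complex III and 132 for complex II. The complex I subunits were lower, at 84.9 CPM per kb for the core and 80.2 for the accessory subunits. Assembly factors were lower still, at 30.3 CPM per kb for complex IV and 15.1 for complex I. The levels rest on the length chosen: the deposited FPKM divides by a length close to the union of all annotated exons, which for the members is a median of 2.51 times the coding transcript and up to 30.8 times. On the FPKM scale NDUFS5 was highest (414 FPKM) and UQCRB, high per coding transcript at 378 CPM per kb, had 21.1 FPKM.

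**Figure D2:**
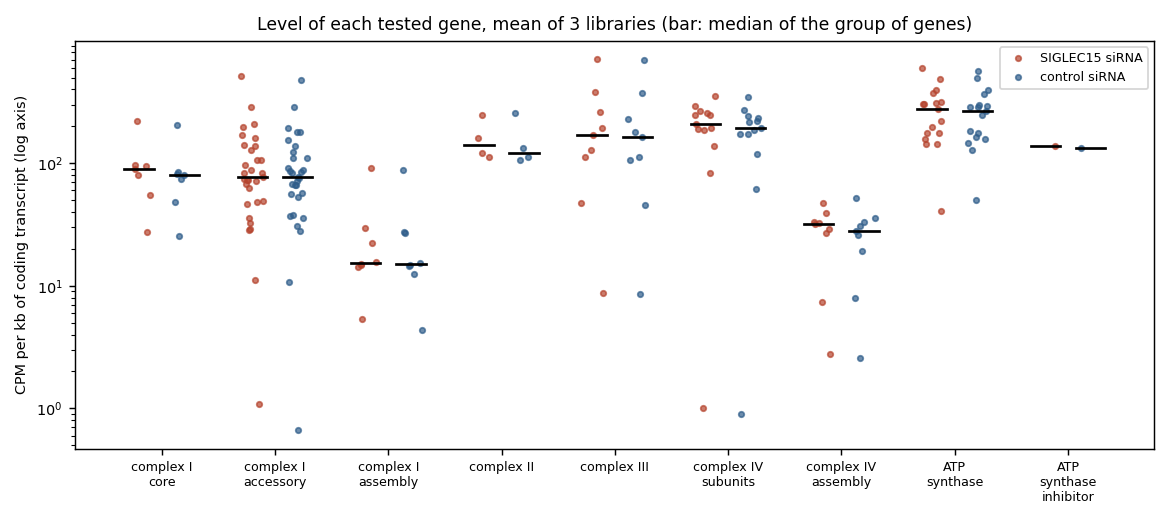
Level of each tested gene in CPM per kb of its median coding transcript (vertical log axis), by role, SIGLEC15 siRNA left and control siRNA right in each pair; a point is the mean of 3 libraries and a bar the median of the genes of that role. The medians of the subunit genes of the ATP synthase, complex IV and complex III sit above those of complex I in both groups. The medians of the assembly factors of complexes I and IV sit lowest. Single genes overlap between roles, and the lowest points are NDUFC2-KCTD14 and NDUFA4L2.

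Complex I takes electrons from NADH. None of its genes passed the edgeR test, and the summed level of the 7 core subunit genes was 805 ± 16.9 CPM in SIGLEC15 siRNA cells and 732 ± 42.7 CPM in control cells (SD, n = 3 each). Of the core genes 6 of 7 were positive (49.1% of all tested genes), with a median log2 fold change of 0.18. Control siRNA replicate 1 was the lowest library for 6 of the 7, and SIGLEC15 siRNA replicate 1 the highest for 5. NDUFS1, the large iron-sulfur subunit, had 215, 231 and 241 CPM in SIGLEC15 siRNA replicates 1, 2 and 3, against 200, 204 and 204 CPM in control siRNA replicates 1, 2 and 3. Every SIGLEC15 siRNA value of NDUFS1 lay above every control value, and the difference missed the threshold (log2 fold change 0.18, SE 0.062, edgeR adjusted p = 0.183). NDUFV1, which binds FMN and NADH, had the only negative value among the core genes (log2 fold change -0.03, SE 0.150, edgeR adjusted p = 0.949), and its interval ran from -0.39 to 0.33.

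The 31 accessory subunit genes of complex I summed to 2538 ± 155 CPM in SIGLEC15 siRNA cells and 2452 ± 196 CPM in control cells (SD, n = 3 each), with 22 positive and a median log2 fold change of 0.07. NDUFS4, a subunit next to the NADH module whose loss causes Leigh syndrome, had 49.8, 48.6 and 52.6 CPM in SIGLEC15 siRNA replicates 1, 2 and 3, against 55.9, 58.9 and 59.0 CPM in control replicates. NDUFA10, another accessory subunit, lay in the other direction, with 199, 207 and 210 CPM in SIGLEC15 siRNA replicates, against 182, 186 and 182 CPM in control replicates. Neither gene's groups overlapped, and neither passed: the log2 fold change was -0.20 for NDUFS4 (SE 0.070, edgeR adjusted p = 0.175) and 0.17 for NDUFA10 (SE 0.054, edgeR adjusted p = 0.154). NDUFA5, an accessory subunit of the peripheral arm, had 53.3, 42.5 and 50.1 CPM in SIGLEC15 siRNA replicates, against 65.7, 52.2 and 72.7 CPM in control replicates. SIGLEC15 siRNA replicate 1 lay above control replicate 2, so the groups of NDUFA5 overlapped (log2 fold change -0.39, SE 0.144, edgeR adjusted p = 0.209). The 8 complex I assembly genes had a median log2 fold change of 0.07. NDUFAF5, which modifies the core subunit NDUFS7 during assembly, had 17.7, 17.0 and 17.3 CPM in SIGLEC15 siRNA replicates, against 15.3, 12.4 and 14.5 CPM in control replicates, so the groups did not overlap (log2 fold change 0.30, SE 0.112, edgeR adjusted p = 0.213). NDUFAF8 had the lowest log2 fold change of that role, -0.30 with an interval from -0.81 to 0.22.

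Complex II is succinate dehydrogenase, which also works in the citric acid cycle. Its 4 genes summed to 631 ± 37.4 CPM in SIGLEC15 siRNA cells and 584 ± 9.05 CPM in control cells (SD, n = 3 each), and 3 of 4 log2 fold changes were positive. SDHA, the flavoprotein, had 238, 234 and 239 CPM in SIGLEC15 siRNA replicates 1, 2 and 3, against 221, 211 and 236 CPM in control replicates. The groups of SDHA overlapped at a narrow interval of -0.06 to 0.24 on the log2 scale. For SDHA the named pseudogenes held 6.03% of the gene and pseudogene sum, so part of its reads may be assigned to copies.

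In complex III all 9 genes had positive log2 fold changes (49.1% of all tested genes did), with a median of 0.06 and every interval within 1.5-fold. Control siRNA replicate 1 was the lowest library for 8 of the 9, and SIGLEC15 siRNA replicate 1 the highest for 5. UQCR10, a small subunit, had 213, 188 and 186 CPM in SIGLEC15 siRNA replicates 1, 2 and 3, against 161, 171 and 180 CPM in control replicates. Its groups were apart by little (log2 fold change 0.20, SE 0.079, edgeR adjusted p = 0.241). UQCRH had 459, 415 and 402 CPM in SIGLEC15 siRNA replicates, against 376, 415 and 462 CPM in control replicates, a spread within each group far wider than the difference between them (log2 fold change 0.03). UQCRHL, a near copy of UQCRH, followed at 20.0, 19.8 and 17.0 CPM in SIGLEC15 siRNA replicates, against 16.2, 19.1 and 20.7 CPM in control replicates; reads of the 2 genes may be exchanged, so both are uncertain.

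Complex IV is cytochrome c oxidase. All 13 tested subunit genes were positive (49.1% of all tested genes were), with a median log2 fold change of 0.11. Control siRNA replicate 1 was the lowest library for 11 of the 13, and SIGLEC15 siRNA replicate 1 the highest for 9. Summed subunit levels were 1890 ± 145 CPM in SIGLEC15 siRNA cells and 1710 ± 165 CPM in control cells (SD, n = 3 each). NDUFA4, named for complex I and now counted as a subunit of complex IV, had 312, 299 and 278 CPM in SIGLEC15 siRNA replicates 1, 2 and 3, against 238, 271 and 256 CPM in control replicates. Its groups did not overlap and the difference missed the threshold (log2 fold change 0.22, SE 0.075, edgeR adjusted p = 0.176). COX4I1, the largest nuclear subunit, had 244, 226 and 232 CPM in SIGLEC15 siRNA replicates, against 194, 211 and 245 CPM in control replicates, and its groups overlapped (log2 fold change 0.11).

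Among the 9 assembly genes of complex IV were the smallest p and the largest fold of the 12 members under an unadjusted p of 0.05. COX20, a chaperone of the mitochondrially encoded subunit MT-CO2, had 52.9, 51.0 and 53.0 CPM in SIGLEC15 siRNA replicates 1, 2 and 3, against 44.1, 45.0 and 44.6 CPM in control replicates. Each SIGLEC15 siRNA value was above each control value, and the difference of 0.23 on the log2 scale (SE 0.065, edgeR adjusted p = 0.110) did not pass over all tested genes. COX20 overlaps HNRNPU on the other strand and its named pseudogenes hold 6.37% of the sum; no source used here says whether counting used strand, so its reads cannot be told apart from those of HNRNPU where they overlap. COX10, the enzyme that makes heme O on the way to the heme A of complex IV, had 54.8, 54.8 and 43.3 CPM in SIGLEC15 siRNA replicates, against 42.8, 33.8 and 32.0 CPM in control replicates. The lowest SIGLEC15 siRNA value of COX10 lay just above the highest control value (1.41-fold higher, log2 fold change 0.49, SE 0.148, 95% interval 0.14 to 0.84, edgeR adjusted p = 0.129). COX17, a copper chaperone, had the lowest log2 fold change of the role (-0.13, interval -0.40 to 0.14).

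The ATP synthase genes summed to 4651 ± 141 CPM in SIGLEC15 siRNA cells and 4604 ± 340 CPM in control cells (SD, n = 3 each), and 12 of the 17 tested were positive (median log2 fold change 0.08). ATP5F1B had 673, 652 and 738 CPM in SIGLEC15 siRNA replicates 1, 2 and 3, against 681, 818 and 698 CPM in control replicates, with overlapping groups (log2 fold change -0.09). ATP5IF1, which blocks ATP hydrolysis by the enzyme, had 82.9, 79.6 and 72.0 CPM in SIGLEC15 siRNA replicates, against 65.2, 77.1 and 84.6 CPM in control replicates, also overlapping (log2 fold change 0.05, interval -0.22 to 0.31).

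Within the ATP synthase the 3 genes of the c subunit, the rotor ring, lay in opposite directions. ATP5MC1, ATP5MC2 and ATP5MC3 encode precursors with different targeting peptides that are cut to the same mature protein. ATP5MC1 had 100, 95.4 and 90.1 CPM in SIGLEC15 siRNA replicates 1, 2 and 3, against 72.7, 79.6 and 85.3 CPM in control replicates, so all SIGLEC15 siRNA values were higher. ATP5MC2 had 133, 111 and 108 CPM in SIGLEC15 siRNA replicates, against 151, 140 and 152 CPM in control replicates, so all SIGLEC15 siRNA values were lower. ATP5MC3 had 273, 243 and 247 CPM in SIGLEC15 siRNA replicates, against 213, 252 and 258 CPM in control replicates, and its groups overlapped. The log2 fold changes were 0.27 for ATP5MC1 (SE 0.082, edgeR adjusted p = 0.140), -0.33 for ATP5MC2 (SE 0.095, edgeR adjusted p = 0.115) and 0.08 for ATP5MC3 (SE 0.092, edgeR adjusted p = 0.724), none past the edgeR threshold. DESeq2 called ATP5MC1 (DESeq2 adjusted p = 0.0094) and ATP5MC2 (DESeq2 adjusted p = 0.0053). The sum of the 3 genes was 467 ± 34.1 CPM in SIGLEC15 siRNA cells and 468 ± 29.6 CPM in control cells (SD, n = 3 each), a ratio of 0.998.

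Shares within the trio removed the scaling between libraries. ATP5MC1 held 34.2, 36.4 and 35.1% of the summed FPKM in SIGLEC15 siRNA replicates 1, 2 and 3, against 28.6, 29.7 and 30.0% in control replicates. ATP5MC2 held 29.8, 27.8 and 27.6% in SIGLEC15 siRNA replicates, against 39.0, 34.2 and 35.0% in control replicates. For both genes the groups were fully apart, by 5.86 percentage points for ATP5MC1 and -7.65 points for ATP5MC2, and each exact two-sided permutation test gave p = 0.1, the smallest that 3 against 3 libraries allow, so 0.05 cannot be reached in this design. ATP5MC3 held 36.3% ± 0.787 in SIGLEC15 siRNA cells and 34.5% ± 1.94 in control cells (SD, n = 3 each; exact permutation p = 0.3). Shares of CPM, which do not divide by length, put the ATP5MC1 difference at 3.51 points and the ATP5MC2 difference at -6.56 points. On that scale ATP5MC3 held 53.9, 54.0 and 55.5% in SIGLEC15 siRNA replicates, against 48.8, 53.4 and 52.1% in control replicates. Its groups were then also apart, by 3.05 points (exact permutation p = 0.1), so whether the share of ATP5MC3 separates the groups depends on the unit. On the FPKM scale the 3 genes looked about equal. Per kilobase of coding transcript ATP5MC3 had 294 CPM per kb, against 163 for ATP5MC2 and 162 for ATP5MC1, so their order of abundance depends on the length used. Dividing a gene by the same length in every library cannot change its direction, so the change of length is no check of the opposite directions.

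**Figure D3:**
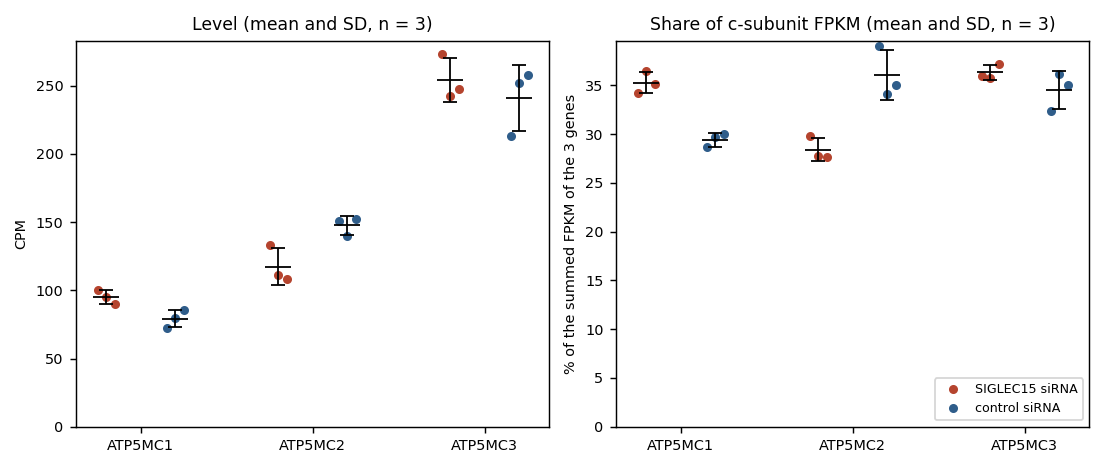
Left, CPM of the 3 c-subunit genes of the ATP synthase; right, each gene's share of their summed FPKM in percent; SIGLEC15 siRNA left and control siRNA right, 1 point per library with mean and SD (n = 3). ATP5MC1 points are all higher and ATP5MC2 points all lower in SIGLEC15 siRNA cells, and ATP5MC3 overlaps in level.

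Tissue isoforms of complex IV were silent or nearly so. COX4I2 (lung), COX6A2 and COX7A1 (muscle) and COX7B2 (testis) had 0 counts in all 6 libraries. COX6B2 and COX8C, known from testis, did not pass the filter, and COX6B1 and COX8A made up between 99.9% and 100% of the summed FPKM of their pairs in every library. ATP5MGL, a copy of ATP5MG, and the read-through ATP5MF-PTCD1 also had too few counts, which completes the 8 members left out of the test. NDUFA4L2, a hypoxia-induced relative of NDUFA4, made up 0.471% ± 0.088 of the pair's FPKM in SIGLEC15 siRNA cells and 0.472% ± 0.132 in control cells (SD, n = 3 each; exact permutation p = 1). In the remaining pair COX7A2L, which joins complexes III and IV in supercomplexes, held 20.0% ± 3.79 of the FPKM in SIGLEC15 siRNA cells and 18.0% ± 2.91 in control cells beside COX7A2 (exact permutation p = 0.6). Across the paralog sets 7 shares that varied were tested (the c-subunit trio, COX6B1, COX8A, NDUFA4 and COX7A2), and with 0.1 as the smallest possible p none could pass 0.05.

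The positive median of the members rested on 2 libraries. SIGLEC15 siRNA replicate 1 was the highest of the 6 libraries for 52 of the 99 members, and control siRNA replicate 1 the lowest for 67. The members' median log2 deviation from each gene's own mean was 0.127, 0.017 and -0.021 in SIGLEC15 siRNA replicates 1, 2 and 3, against -0.162, -0.017 and 0.065 in control replicates 1, 2 and 3. Over all tested genes the same median stayed between 0.008 and 0.022 in the 6 libraries. Without control replicate 1 the members' median log2 fold change was 0.019, with 57 of 99 positive, and without SIGLEC15 siRNA replicate 1 it was also 0.019, with 59 of 100. Without both it was -0.025, with 38 of 99 positive. This fit was added after the data were seen. Its 2 libraries were picked from these same values, so the direction of that shift was fixed in advance. Without control replicate 2 or 3 the members' median was 0.082 or 0.113. Without SIGLEC15 siRNA replicate 2 or 3 it was 0.096 or 0.104.

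Other gene lists were also low in control replicate 1, among them the ribosomal protein genes, cytosolic and mitochondrial. The cytosolic ribosomal protein genes, a list added after the data were seen, had median deviations of 0.091, -0.044 and -0.068 in SIGLEC15 siRNA replicates 1, 2 and 3, against -0.129, 0.018 and 0.128 in control replicates. Of the 76 tested, 42 were lowest in control replicate 1, while 21 were highest in SIGLEC15 siRNA replicate 1 and 46 in control replicate 3. The mitochondrial ribosomal protein genes followed with 0.115 in SIGLEC15 siRNA replicate 1 and -0.103 in control replicate 1. In the same 2 libraries the citric acid cycle genes had 0.071 and -0.106, and the glycolysis genes 0.056 and -0.059. Assembly factors and subunits outside the rule had 0.061 and -0.050, while regulators of mitochondrial biogenesis had -0.006 and 0.006. The 13 subunits encoded by mitochondrial DNA did not share the pattern, at 0.025, -0.077 and 0.097 in SIGLEC15 siRNA replicates, against -0.003, -0.079 and -0.024 in control replicates. All tested genes were also split into 5 equal bins by the length that FPKM implies. The shortest bin had median deviations of 0.055, 0.013 and -0.033 in SIGLEC15 siRNA replicates, against -0.009, 0.032 and 0.094 in control replicates. Its median log2 fold change was -0.025, against 0.080 for the members. In the longest bin the deviations were -0.038, 0.034 and 0.051 in SIGLEC15 siRNA replicates, against 0.050, 0.009 and -0.043 in control replicates. With the length trend taken out of each library the members' median log2 fold change was 0.101. What the members' median owes to transcript length or to other sources was not tested.

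**Figure D4:**
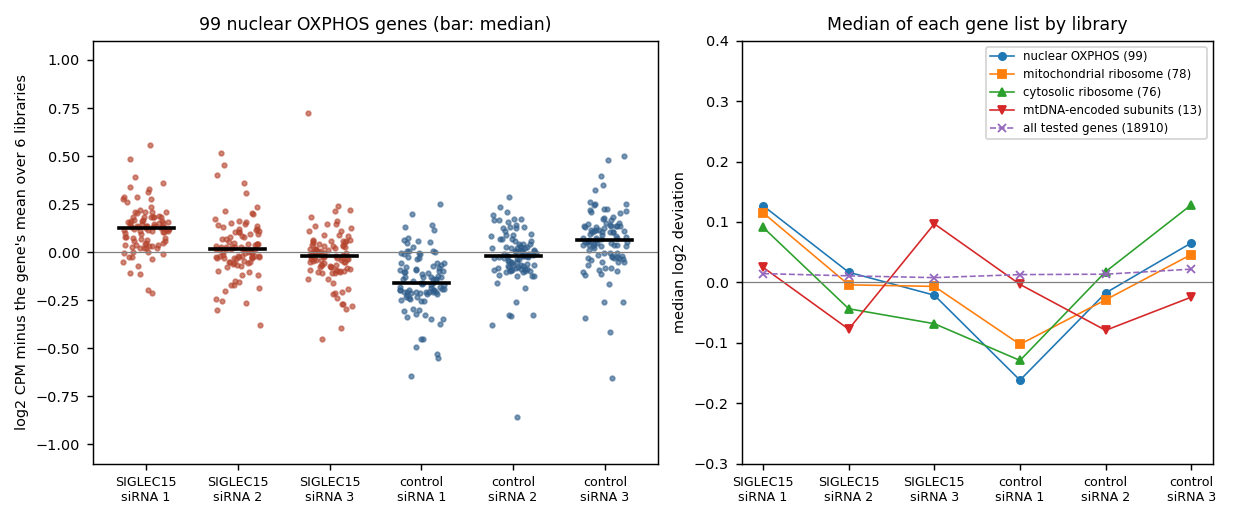
Left, log2 CPM of each of the 99 tested members minus the gene's own mean over the 6 libraries, SIGLEC15 siRNA libraries left of control siRNA libraries, bars at the median. Right, the median of that deviation by library for the members, 3 other gene lists and all tested genes; the members and both ribosomal lists are high in SIGLEC15 siRNA replicate 1 and low in control siRNA replicate 1, the cytosolic list is highest in control siRNA replicate 3, and all tested genes stay near 0.

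Single libraries stood apart for a few members. By a rule set after the data were seen, a mean of at least 10 CPM and 1 library at least 1.5-fold from every other, this held for 4 of 97 members (4.12%), against 5.62% of 9895 genes. NDUFA12, an accessory subunit added late in complex I assembly, had 107, 40.5 and 40.4 CPM in SIGLEC15 siRNA replicates 1, 2 and 3, against 39.6, 47.7 and 40.7 CPM in control replicates. ATP5F1D, the delta subunit of the central stalk, had 36.4, 36.9 and 12.0 CPM in SIGLEC15 siRNA replicates, against 32.8, 31.8 and 41.5 CPM in control replicates. In these genes a single SIGLEC15 siRNA library stood high or low, and its 2 partners lay among the controls.

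In 2 further genes a control library was low. NDUFB9, a membrane arm subunit, had 172, 151 and 147 CPM in SIGLEC15 siRNA replicates 1, 2 and 3, against 147, 77.7 and 180 CPM in control replicates. SDHD, a membrane anchor of complex II, had 148, 128 and 141 CPM in SIGLEC15 siRNA replicates, against 123, 139 and 78.7 CPM in control replicates. The log2 fold changes of these 4 genes, 0.55 for NDUFA12, -0.31 for ATP5F1D, 0.22 for NDUFB9 and 0.29 for SDHD, therefore describe 1 library each, and their intervals are wide. Among the remaining members of this level the ratio of the highest to the lowest library was 2.16 for COX7A2L, the widest, 1.89 for NDUFA6, 1.82 for NDUFAF4 and at most 1.80 for the rest. COX7A2L and NDUFA6 were highest in SIGLEC15 siRNA replicate 1 and lowest in control replicate 1.

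**Figure D5:**
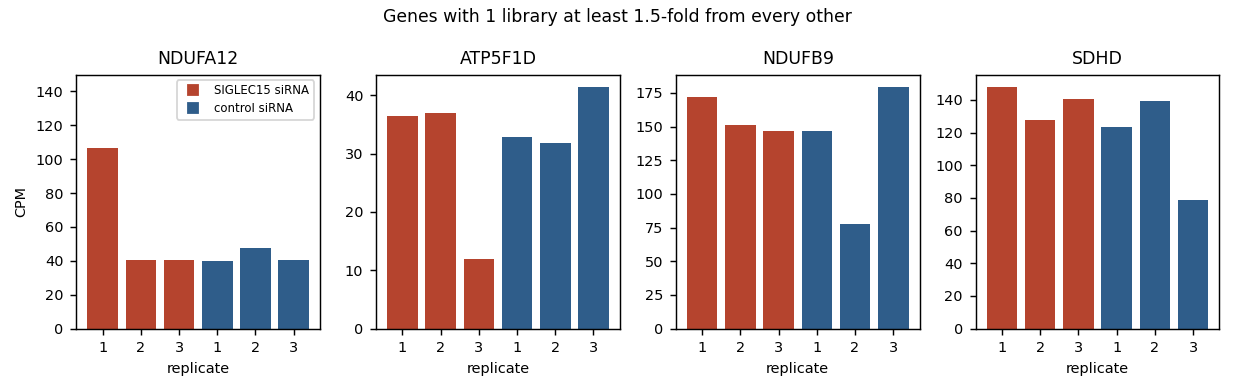
CPM (vertical axis from 0) of NDUFA12, ATP5F1D, NDUFB9 and SDHD in each library, SIGLEC15 siRNA replicates 1 to 3 left and control siRNA replicates 1 to 3 right. In each panel 1 bar departs from the other 5, in SIGLEC15 siRNA replicate 1, SIGLEC15 siRNA replicate 3, control replicate 2 and control replicate 3 in the order of the panels.

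Other genes of the pathway were read from lists outside the rule. Over all tested genes edgeR called 2.22% higher and 2.43% lower, and 19.1% had an unadjusted p under 0.05. DESeq2 called 17.1% of the genes it gave an adjusted p. The 13 mitochondrially encoded subunits had 0 edgeR calls, 3 at an unadjusted p under 0.05 (all higher) and 3 DESeq2 calls, and took 6.07% ± 0.243 of the counts in SIGLEC15 siRNA cells and 5.78% ± 0.126 in control cells (SD, n = 3 each). Of the 42 tested assembly factors and subunits outside the rule 1 fell, TACO1, which activates translation of the complex IV subunit MT-CO1. It had 27.5, 28.3 and 31.7 CPM in SIGLEC15 siRNA replicates 1, 2 and 3, against 42.7, 41.3 and 47.6 CPM in control replicates, and no values overlapped (log2 fold change -0.59, SE 0.097, edgeR adjusted p = 0.024). Its call was lost in 5 of the 6 fits that left out 1 library and kept without SIGLEC15 siRNA replicate 3. The list's median log2 fold change was 0.015. The 13 citric acid cycle genes had 0 edgeR calls, 3 at an unadjusted p under 0.05 (2 higher, 1 lower) and 3 DESeq2 calls, with a median of 0.112.

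Of 19 regulators of mitochondrial biogenesis 2 rose and 0 fell by edgeR, against 2.22% higher and 2.43% lower of all tested genes. CLUH, which binds mRNAs of nuclear-encoded mitochondrial proteins, had 122, 161 and 143 CPM in SIGLEC15 siRNA replicates 1, 2 and 3, against 94.2, 85.6 and 87.5 CPM in control replicates (log2 fold change 0.67, SE 0.109, edgeR adjusted p = 0.022). PPARGC1A, the coactivator PGC-1alpha, had 2.45, 2.82 and 3.01 CPM in SIGLEC15 siRNA replicates, against 1.47, 1.41 and 1.57 CPM in control replicates (log2 fold change 0.90, SE 0.174, edgeR adjusted p = 0.039). For both genes the groups were apart, at a high level for CLUH and a low one for PPARGC1A. The calls were close to the threshold: PPARGC1A lost its call in each fit that left out 1 library, and CLUH in 5 of the 6 (it passed without SIGLEC15 siRNA replicate 1), with log2 fold changes that stayed between 0.57 and 0.97 for both.

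Of the 78 mitochondrial ribosomal protein genes tested 3 fell and 0 rose (2.43% and 2.22% of all tested genes), with a median log2 fold change of 0.064. At an unadjusted p under 0.05 the direction was mostly the other, with 15 higher and 6 lower (19.1% of all tested genes in both directions). The groups were apart for 18 higher and 6 lower genes (12.9% and 13.7% of all tested genes). SIGLEC15 siRNA replicate 1 was the highest library for 41 of the 78 and control siRNA replicate 1 the lowest for 29. MRPL28 had 28.4, 26.3 and 28.1 CPM in SIGLEC15 siRNA replicates 1, 2 and 3, against 65.8, 63.0 and 72.3 CPM in control replicates (log2 fold change -1.28, SE 0.084). MRPL51 and MRPL32, also of the large subunit, had log2 fold changes of -1.11 (SE 0.104) and -0.72 (SE 0.078), and the edgeR adjusted p was 0.001, 0.004 and 0.007 for MRPL28, MRPL51 and MRPL32. No member came near these sizes with groups apart: the largest such log2 fold change was that of COX10. In glycolysis, the route that makes ATP without oxygen, 2 of 17 genes rose and 0 fell (2.22% and 2.43% of all tested genes). PGAM1 had 1056, 1094 and 1077 CPM in SIGLEC15 siRNA replicates, against 830, 902 and 842 CPM in control replicates (log2 fold change 0.33, SE 0.056, edgeR adjusted p = 0.026). PFKP, a phosphofructokinase, was higher by 0.31 on the log2 scale (SE 0.057, edgeR adjusted p = 0.034). The median of the glycolysis list was -0.031, and both calls were lost in each fit without 1 library. The cytosolic ribosomal list had 0 edgeR calls, 4 at an unadjusted p under 0.05 and 3 DESeq2 calls, with a median of -0.013. DESeq2 called 17.1% of all genes it gave an adjusted p.

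Near-identical copies limit some members. Pseudogenes named after a member were in the table for 50 members, 168 in all, and held over 3% of the gene and pseudogene sum for 3: SDHA, COX20 and NDUFV2 (3.43%). Another gene overlapped 66 of the 107 members, on the same strand for 43. No source used here says how reads in such overlaps were assigned.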

How the data were processed

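Poly(A) RNA of 143B cells was sequenced as paired-end libraries from 5 µg of RNA with a 300 bp insert, per the labels' protocols. The authors deposited whole-number counts and, in further columns, FPKM for each gene and library, per the file headers. HISAT, StringTie and edgeR are named in the submitters' processing notes. No source used here gives versions, genome build, counting step or strand setting. A passage of the protocol on another species and sequencer was not used. An FPKM of 0.0001 or less marks a count of 0 and was read as 0. All 107 members lie on the same chromosome and strand in GENCODE 29 (GRCh38) as in the table.

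Counts were tested over all 6 libraries with edgeR 4.0.16 in R 4.3.3 (filterByExpr, minimum count 10 and total 15; TMM; quasi-likelihood F test; Benjamini-Hochberg over all tested genes; threshold 0.05). SE is the log2 fold change over the square root of F. Deviations by library use log2(CPM + 0.05). Length per coding transcript came from GENCODE 29 and was added after the data were seen. Shares of isoform FPKM used an exact two-sided permutation test. Alternatives were DESeq2 1.42.0, limma 3.58.1 on log2 FPKM (pseudocounts 1 and 0.1, mean FPKM of at least 1), size factors, filters, a length offset, the replicate number as a block and each library left out. The edgeR step was tested on simulated data. Replicate pairs differed by more than counting noise (chi-square per degree of freedom 56.7 to 69.7), so none was merged. Libraries with the same replicate number did not deviate together, which cannot show whether they were prepared together.

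The members and lists were chosen with earlier results of these data known. Named genes are, per role, the tested member of smallest p in either direction and the one with the highest FPKM, the isoform genes, members left out by the filter, called members of related lists and SIGLEC15. Members at an unadjusted p under 0.05 outside this rule (COX10, NDUFA5, NDUFS1) and those singled out for level, length or 1 library were named after their values were seen. A gene that the rule takes is not reported here. Promoter sequences are from RefSeq.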

Additional observations from a re-analysis of the deposited data

How the results depend on the processing

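The edgeR count of members called was 0 higher and 0 lower under every edgeR and limma alternative run, while DESeq2 called 8 higher and 3 lower. The number of genes changed over the whole table was 879, and 2916 with DESeq2, 50 with the replicate number as a block, 51 without the first library of each group and 260 to 431 without 1 library. Members at an unadjusted p under 0.05 numbered 3 higher and 2 lower with the block. Same-numbered libraries did not deviate together (correlations of -0.050, 0.011 and -0.067). Whether they were prepared together cannot be read from these values, so the block stands only for a shared number. The members' median log2 fold change was 0.019 to 0.113 without 1 library, 0.082 with the block and -0.025 without the first library of each group, a setting added after seeing the data. Shares of CPM in place of FPKM moved ATP5MC1 to 3.51 points, ATP5MC3 to 3.05 (from 1.79, with an exact permutation p of 0.1 in place of 0.3), COX7A2 to -2.96 (from -1.94), COX6B1 to 0.095 and COX6B2 to -0.095 points.

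Called genes of related lists were fewer in some settings: 0 under the block for assembly factors, for biogenesis regulators and for glycolysis, and 1 for the mitochondrial ribosome. Without 1 library assembly factors outside the rule had 0 to 1, biogenesis regulators 0 to 1 and glycolysis 0. With no filter biogenesis regulators and glycolysis had 1 each, and both limma settings gave 1 for biogenesis regulators. DESeq2 gave 3 of 13 mitochondrially encoded subunits, 7 of 19 biogenesis regulators, 3 of 13 citric acid cycle genes, 17 of 78 mitochondrial ribosome genes and 4 of 17 glycolysis genes. Over all genes with a DESeq2 adjusted p it called 17.1%.

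Among uncalled members the sign turned without 1 library in some fits, with log2 fold changes of -0.049 to 0.133 for ATP5IF1, -0.0036 to 0.127 for ATP5MC3, -0.057 to 0.060 for COX16, -0.037 to 0.086 for COX6A1, -0.031 to 0.082 for COX8A, -0.079 to 0.326 for NDUFA4L2, -0.018 to 0.101 for NDUFAF2, -0.195 to 0.068 for NDUFV1, -0.028 to 0.194 for SDHB, -0.105 to 0.00077 for SDHC and -0.044 to 0.101 for UQCRH. The cause was not tested. COX16 also turned with the length offset (0.026). Low counts left NDUFC2-KCTD14 and NDUFA4L2 with intervals wider than 1.5-fold either way.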
